A study of Homo sapiens with 21 samples.

Results

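The LIM homeobox and LIM-only factors described here were 10 genes chosen by name from the 61268 features of the count table: the LIM homeobox genes LHX1, LHX2, LHX5, LHX9, LMX1A and LMX1B, and the LIM-only genes LMO1, LMO2, LMO3 and LMO4. They were followed in human H9 embryonic stem cells with the genotype TRE3G-2xFLAG GSX2 WT. This transgene places GSX2, a homeobox factor of the lateral ganglionic eminence (LGE), in its FLAG-tagged wild-type form under a promoter that doxycycline switches on. All 7 groups of 3 libraries shared this genotype and an LGE-like monolayer differentiation in Essential 6 medium, with LDN193189, SB431542 and XAV939, then LDN193189 and SB431542, then IWP2 and Activin A. Dox cultures received 100 ng/mL doxycycline for 12 h from day 10 and were collected at 12, 24 and 48 h after day 10, so that the 24 h and 48 h collections followed its withdrawal. NoDox cultures were collected at the same 3 times without doxycycline, and the baseline group was collected at day 10. The labels describe 1 transgenic line of 1 parent line and no cells given the drug that lack the transgene, and what doxycycline and GSX2 each changed cannot be told apart. Nothing in the labels says that the 3 replicates of a group were separate cultures, and p-values then measure only the spread between these samples.

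LIM homeobox proteins carry a pair of LIM domains and a DNA-binding homeodomain. Their LIM domains bind the cofactor LDB1, which joins them to other transcription factors and to single-stranded DNA-binding proteins of the SSBP family. LIM-only proteins have the LIM domains but no homeodomain, so they bridge other factors or compete with LIM homeobox proteins for LDB1. In the embryonic forebrain LHX2 selects cortical identity against the cortical hem and acts in the eye field, LHX5 and LHX1 act in the hem and in Cajal-Retzius neurons, and LHX9 marks pallial and diencephalic territories. LMX1A and LMX1B are known from the roof plate and the midbrain dopaminergic lineage.

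Homeodomain proteins of the GSX2 type recognise sites built on the letters TAAT, and so the promoters of the members were searched for TAAT on either strand and for TAATTA, which is its own reverse complement and counts also as a TAAT on each strand. RefSeq windows (GRCh38.p14, 250 bases before to 50 after a gene start) were held for 7 members, as 14 windows: LHX2, LMX1B and LMO1 with 1 each, LHX9, LMX1A and LMO4 with 2 each, and LMO3 with 5, of which some overlap. LHX1, LHX5 and LMO2 had none. TAATTA was found in 1 window of LMO1 and in 1 of LMO3, with 2 copies in each, at 177 and 44 bases before the start of LMO1 and at 232 and 97 bases before that of LMO3. Of 35116 windows of 27305 genes, 4.84% held TAATTA at least 1 time and 0.416% at least 2 times. The 2 windows are printed here because they were also dense in TAAT, and LHX2, the most abundant member, is shown beside them as a window without it. The 250 bases before the start are printed 5′ to 3′ on the gene's strand, with each TAAT or ATTA in capitals. The stretches are chr11:8268788-8269037 for LMO1 and chr12:16608215-16608464 for LMO3, both on the minus strand, and chr9:124011518-124011767 for LHX2 on the plus strand.
LMO1: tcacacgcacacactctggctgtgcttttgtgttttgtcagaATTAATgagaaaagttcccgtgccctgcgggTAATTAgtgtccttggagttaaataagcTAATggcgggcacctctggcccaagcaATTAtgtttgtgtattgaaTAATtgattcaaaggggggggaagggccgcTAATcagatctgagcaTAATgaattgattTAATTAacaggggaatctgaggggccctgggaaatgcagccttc
LMO3: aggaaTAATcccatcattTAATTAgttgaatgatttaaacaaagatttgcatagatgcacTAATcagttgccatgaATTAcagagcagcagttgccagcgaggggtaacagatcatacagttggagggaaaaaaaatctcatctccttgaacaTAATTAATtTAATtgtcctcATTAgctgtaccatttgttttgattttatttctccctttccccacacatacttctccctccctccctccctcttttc
LHX2: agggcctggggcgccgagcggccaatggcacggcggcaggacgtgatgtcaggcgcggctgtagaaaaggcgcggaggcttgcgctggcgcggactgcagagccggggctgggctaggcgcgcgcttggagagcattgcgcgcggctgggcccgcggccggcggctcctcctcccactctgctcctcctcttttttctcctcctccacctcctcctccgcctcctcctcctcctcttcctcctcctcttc

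The LMO1 window held 11 TAAT on either strand and the LMO3 window 10, against a share of 0.547% of all windows with at least 10. The other 4 LMO3 windows held between 1 and 3 TAAT and no TAATTA. One LHX9 window held 1 TAAT, and the other LHX9 window and those of LHX2, LMX1A, LMX1B and LMO4 held none, whereas 50.2% of all windows held at least 1. The counts do not show which start was used: the LHX2 of the count table begins at 124001670, before this window, its LMO1, on the minus strand, starts at 8268716, short of the RefSeq start at 8268787, and its LMO3 starts at 16610594, upstream of the window printed. A match describes the letters only, and binding was not measured here.

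Read depth ran from 14.4 to 33.8 M counts per library. Levels are CPM, a gene's counts per M counts of its library after scaling by edgeR's TMM factors, fold changes are log2 values with an approximate standard error (3 libraries a group), and a gene was called at an adjusted p below 0.05 from edgeR's quasi-likelihood test with Benjamini-Hochberg adjustment over the 19655 features tested. The transgene had 744.8 to 951 CPM in 12 h Dox libraries, 13.6 to 25.2 at 24 h and 0.877 to 0.970 at 48 h, against at most 0.523 CPM in any NoDox library. Dox replicate 3 at 12 h stood apart from its group (chi-square per degree of freedom 25.3 and 15.9 against its 2 partners), as did day 10 replicate 1 (10.7 and 14.3), where other pairs lay between 1.83 and 5.45. Of markers for the labelled LGE-like identity, MEIS2, DLX1 and DLX2 had means between 27.5 and 37.0 CPM at day 10. Among others of the 12 listed, PAX6 had 215.6 CPM, GSX2 9.44 CPM and ISL1 3.68 CPM at day 10. Of the 5 listed pluripotency genes, POU5F1 and NANOG had group means at or below 0.185 CPM, while DPPA4, LIN28A and ZFP42 had 154.6, 82.5 and 6.00 CPM at day 10.

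Levels of the members differed widely. Per kilobase of the gene's listed exon length at day 10, LHX2 led with 91.5 ± 10.7 CPM per kb (SD, n = 3), ahead of LHX5 with 21.6 ± 0.864, LMO4 with 19.3 ± 0.748 and LMO1 with 12.1 ± 0.508 CPM per kb. LMO3 with 1.40 ± 0.224 and LMO2 with 1.40 ± 0.270 CPM per kb followed, then LHX1 with 0.888 ± 0.0889 and LHX9 with 0.647 ± 0.0830 CPM per kb. LMX1B was at 0.0199 CPM per kb, and LMX1A had 11 reads in all 21 libraries together, at most 3 in any of them and 0 in 15. LMX1A did not pass the filter on low counts and was not tested. The other 9 passed, LMX1B only through its 12 h Dox libraries, so that its difference there was a condition of entering the test.

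**Figure D1:**
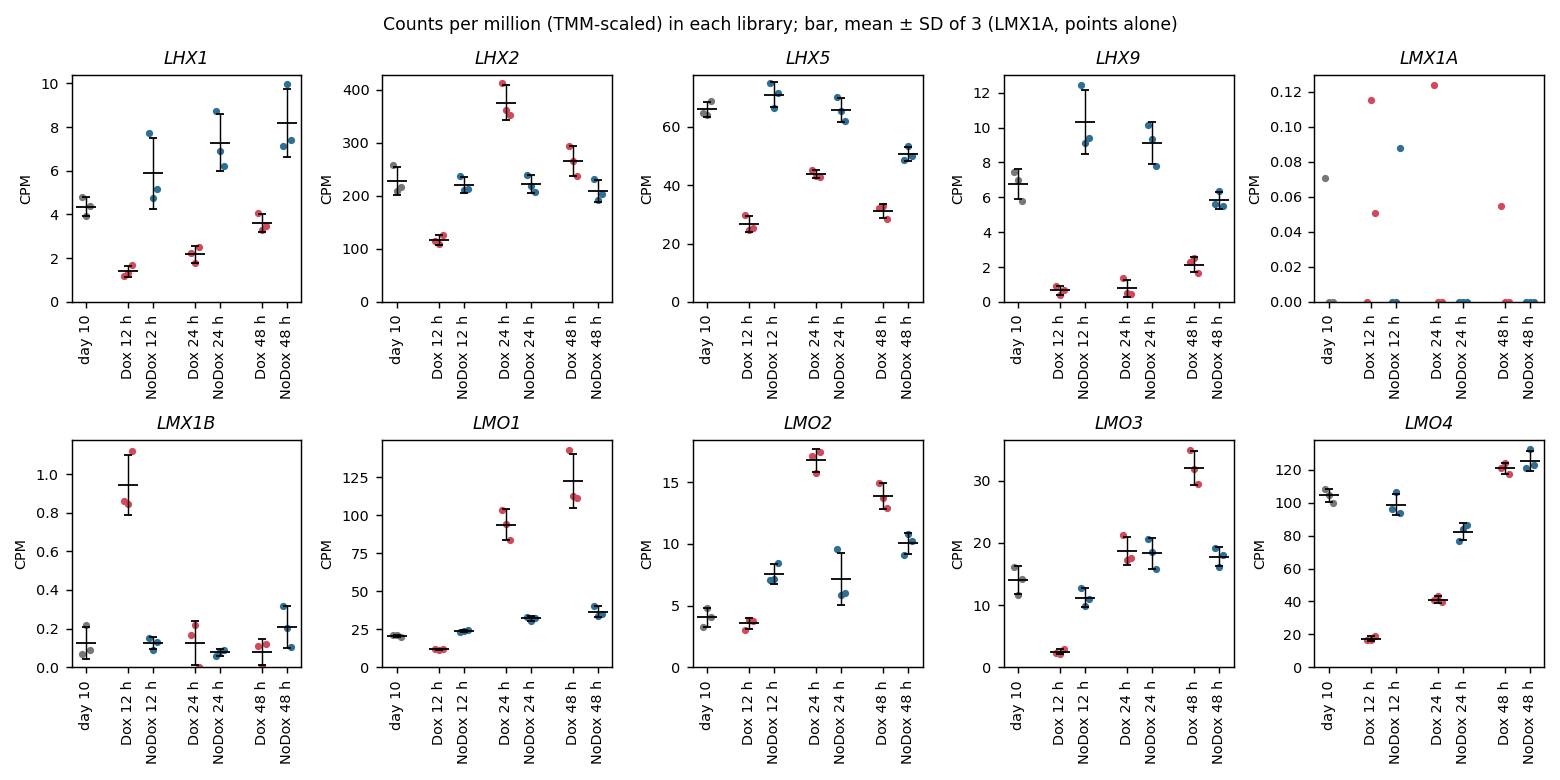
CPM (y axes, linear from 0, a scale for each gene) in every library of the 7 groups for the 10 genes, with Dox points red, NoDox points blue and day 10 grey, and with the mean and SD of 3 libraries as black bars except for LMX1A. LMO4 stands at 16.4 to 19.0 CPM in 12 h Dox libraries and at 94.1 to 106.5 CPM in 12 h NoDox libraries, and the 48 h groups overlap.

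After 12 h of doxycycline most of the members tested were lower, in a list chosen with earlier results of these data known. Of the 9 members tested, 8 fell and 1, LMX1B, rose, where 19.9% of all genes tested were called lower and 19.8% higher. LMX1B passed the filter only through these 12 h Dox libraries, so its higher level in them was a condition of being tested. The median log2 fold change of the 9 was -1.41, against 0.01 for all genes tested. With library totals as the only scaling the median of all genes was shifted by 0.18 at 12 h and the calls over all genes split into 7340 higher and 2213 lower, against 3898 and 3912 with TMM. The members' counts were 1 and 8 under both. Against day 10 the same 12 h Dox libraries had 7 members lower and 1 higher, where 24% of all genes were called lower and 24.5% higher (2850 and 7707 genes by library totals, 4717 and 4807 with TMM). Their log2 fold changes against day 10 were -3.32 ± 0.27 for LHX9, -2.60 ± 0.07 for LMO4, -2.50 ± 0.16 for LMO3, -1.64 ± 0.23 for LHX1, -1.31 ± 0.08 for LHX5, -0.97 ± 0.09 for LHX2, -0.81 ± 0.10 for LMO1 and 2.75 ± 0.55 for LMX1B (3.43 without day 10 replicate 2). The member outside these calls was LMO2, with a log2 fold change of -0.22 ± 0.18 (adjusted p = 0.333). Without Dox replicate 3 the log2 fold changes of the members other than LMX1B against NoDox moved by -0.13 to 0.03 and no call changed. In bulk RNA, fewer cells that express a gene and less RNA per cell cannot be told apart, here and below.

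At 24 h, 12 h after withdrawal, the members had divided. LHX2, LMO1 and LMO2 rose against NoDox and LHX1, LHX5, LHX9 and LMO4 fell, which makes 3 of 9 higher and 4 lower, where 17% and 16.9% of all genes were called. The median log2 fold change was 0.02 for the members and -0.00 for all genes. At 48 h LHX2, LMO1, LMO2 and LMO3 rose and LHX1, LHX5 and LHX9 fell, 4 and 3 of 9, where 9.23% and 8.94% of all genes were called (1017 higher and 2835 lower by library totals, 1814 and 1757 with TMM). LMO2 was not called at 48 h by library totals. The 4 LIM homeobox genes other than LMX1B thus showed 1 that turned from lower to higher and 3 that were lower at all 3 times.

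**Figure D2:**
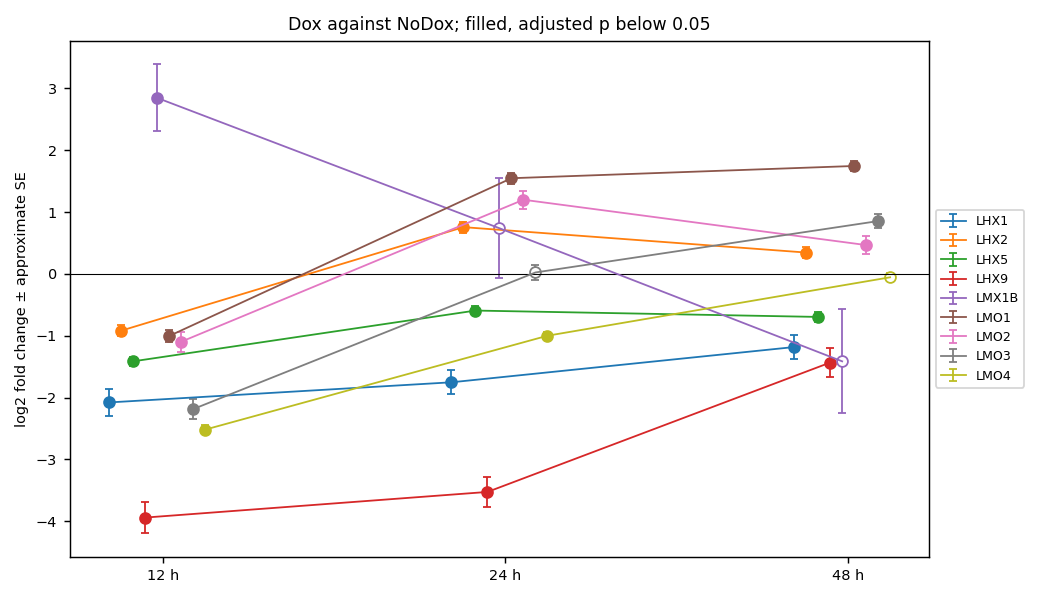
Log2 fold change of Dox against NoDox (y axis) at 12, 24 and 48 h after day 10 (x axis) for the 9 genes tested, with bars for the approximate standard error and filled points for an adjusted p below 0.05. LHX9 lies lowest at 12 h and 24 h (-3.94 and -3.53), and LMO1 is at -1.01, 1.55 and 1.75.

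LHX2 (chromosome 9, 124001670 to 124033301, hg38, plus strand), the cortical selector, changed direction between 12 h and 24 h. At 12 h it had 114.5, 109 and 127 CPM in Dox libraries and 237, 212 and 213 CPM in NoDox libraries. At 24 h it had 414, 362 and 353 CPM in Dox libraries and 240.3, 219.7 and 208 CPM in NoDox libraries. The groups did not overlap at either time, with Dox below NoDox at 12 h and above it at 24 h. The log2 fold changes were -0.92 ± 0.09 (adjusted p = 8.68e-09) and 0.76 ± 0.09 (adjusted p = 2.37e-07), and their difference was 1.68 ± 0.13 (adjusted p = 1.4e-10). At 48 h Dox libraries had 294, 267 and 238 CPM and NoDox libraries 232, 193 and 203 CPM. This difference of 0.35 ± 0.09 (adjusted p = 0.00847) was no longer called without Dox replicate 1 (0.26) or without NoDox replicate 2 (0.29), whereas the 12 h and 24 h calls held without any single library. In the order of group means 24 h Dox was highest and 12 h Dox lowest, each apart from its neighbour, and the 5 groups between, from 48 h Dox at 266 to 48 h NoDox at 209.5 CPM, overlapped from neighbour to neighbour.

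LHX5 (chromosome 12, 113462033 to 113472280, minus strand), a hem and Cajal-Retzius regulator, was lower with Dox at each time. It had 29.8, 24.6 and 25.4 CPM in 12 h Dox libraries and 75.0, 66.4 and 71.8 CPM in NoDox libraries (log2 fold change -1.41 ± 0.08, adjusted p = 2.74e-15). It had 45.3, 43.2 and 42.7 CPM in 24 h Dox libraries and 70.2, 65.5 and 62.0 CPM in NoDox libraries (-0.59 ± 0.07, adjusted p = 1.81e-07). At 48 h the Dox libraries held 32.2, 32.9 and 28.6 CPM and the NoDox libraries 48.6, 53.3 and 49.9 CPM (-0.70 ± 0.08, adjusted p = 1.83e-07). At no time did the Dox and NoDox groups overlap. The Dox effect shrank by 0.82 ± 0.10 between 12 h and 24 h (adjusted p = 4.26e-07), and its change between 24 h and 48 h was -0.10 (95% interval -0.33 to 0.13, adjusted p = 0.522).

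LHX1 (chromosome 17, 36936785 to 36944612, plus strand), an organizer and interneuron regulator related to LHX5, was scarcer and fell at the same 3 times. At 12 h it had 1.18, 1.35 and 1.68 CPM in Dox libraries and 7.75, 4.75 and 5.14 CPM in NoDox libraries. At 24 h Dox libraries held 2.23, 1.78 and 2.53 CPM and NoDox libraries 8.71, 6.93 and 6.21 CPM, and at 48 h Dox libraries held 4.06, 3.29 and 3.45 CPM and NoDox libraries 7.12, 9.96 and 7.43 CPM. Each NoDox library thus lay above every Dox library of its time. Its means were 1.40 ± 0.256, 2.18 ± 0.376 and 3.60 ± 0.403 CPM in Dox libraries at 12, 24 and 48 h (SD, n = 3). The NoDox means were 5.88 ± 1.63, 7.28 ± 1.29 and 8.17 ± 1.56 CPM at those times. The groups did not overlap at any time, and the log2 fold changes were -2.08 ± 0.21 (adjusted p = 4.9e-09), -1.75 ± 0.19 (adjusted p = 2.28e-08) and -1.18 ± 0.19 (adjusted p = 5.06e-05). Neither step between these effects passed the test (0.33, 95% interval -0.31 to 0.96, and 0.57, -0.02 to 1.16).

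LHX9 (chromosome 1, 197911902 to 197935478, plus strand), a pallial and diencephalic marker, had the largest decrease of the members at 12 h and 24 h. It had 0.894, 0.385 and 0.714 CPM in 12 h Dox libraries, which is 25, 10 and 14 reads, and 12.4, 9.14 and 9.41 CPM in NoDox libraries. At 24 h it had 1.36, 0.522 and 0.452 CPM in Dox libraries and 10.2, 9.36 and 7.81 CPM in NoDox libraries. The groups lay far apart at both times, with log2 fold changes of -3.94 ± 0.25 (adjusted p = 3.74e-13) and -3.53 ± 0.25 (adjusted p = 3.91e-12). At 48 h the Dox libraries were at 2.30, 2.49 and 1.64 CPM and the NoDox libraries at 5.63, 6.38 and 5.49 CPM (-1.43 ± 0.23, adjusted p = 7.14e-05). The Dox effect had shrunk by 2.09 ± 0.36 between 24 h and 48 h (adjusted p = 9.66e-05), after a change of 0.41 (95% interval -0.47 to 1.30) between 12 h and 24 h that did not pass. Without 24 h Dox replicate 1, the highest of its group, the 24 h value was -4.21, the step between 24 h and 48 h was 2.78 and that between 12 h and 24 h was -0.27, and the calls stayed as they were.

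LMX1B (chromosome 9, 126613928 to 126701032, plus strand), a roof plate and midbrain regulator, was detected at a few reads and was the 1 member higher at 12 h. It had 24, 22 and 22 reads in Dox libraries (0.858, 0.847 and 1.12 CPM) and 3, 2 and 3 reads in NoDox libraries (0.153, 0.0914 and 0.132 CPM). The fitted log2 fold change was 2.85 ± 0.54 (adjusted p = 9.72e-05), and by the filter it could be tested only because these Dox libraries were high. At 24 h it had 4, 5 and 0 reads in Dox libraries and 2 in each NoDox library, and at 48 h 2, 0 and 2 reads in Dox libraries and 6, 4 and 2 in NoDox libraries. Neither difference passed the test, and the floor of 3 counts stood between 0.0874 and 0.211 CPM over the libraries, within the range of these values. LMX1A (chromosome 1, 165201867 to 165356715, minus strand), its closest relative, had 0, 3 and 1 reads in 12 h Dox libraries and 0, 0 and 2 in 12 h NoDox libraries. Of 9 listed markers of the midbrain floor plate and dopaminergic lineage, FOXA2 had 0 reads in every group and EN1 none outside NoDox at 48 h. The 3 tested, NR4A2, TH and SHH, were all lower with Dox at 12 h, and the list summed to 6.15 to 8.97 CPM in Dox libraries and 25.4 to 29.3 CPM in NoDox libraries. SHH passed the filter only through libraries without doxycycline. At 48 h the list summed to 158 to 217 CPM in Dox libraries and 60.4 to 74.6 CPM in NoDox libraries, mostly TH, the dopamine synthesis enzyme, with 171 ± 33.4 CPM in Dox libraries and 60.6 ± 7.35 CPM in NoDox libraries (1.498 ± 0.114, adjusted p = 4.79e-09). Of the 3 tested, TH rose, SHH fell and NR4A2 did not pass at 48 h (9.23% of all genes were called higher and 8.94% lower). SHH had 0.182 ± 0.107 CPM in 48 h Dox libraries and 0.713 ± 0.0317 CPM in NoDox libraries.

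LMO1 (chromosome 11, 8224309 to 8268716, minus strand), a LIM-only oncogene of T-cell leukaemia, was the member with the largest increase after withdrawal. It had 12.0, 11.2 and 12.2 CPM in 12 h Dox libraries and 23.0, 23.8 and 24.4 CPM in NoDox libraries. At 24 h it had 104, 94.1 and 84.0 CPM in Dox libraries and 33.1, 30.6 and 32.7 CPM in NoDox libraries, and at 48 h 143, 113 and 111.4 CPM in Dox libraries and 40.6, 33.9 and 35.2 CPM in NoDox libraries. All 3 pairs of groups were apart, lower with Dox at 12 h and higher at the later times. The log2 fold changes were -1.01 ± 0.10 (adjusted p = 2.63e-09), 1.55 ± 0.09 (adjusted p = 1.53e-14) and 1.75 ± 0.09 (adjusted p = 3.6e-14). The change between 12 h and 24 h was 2.56 ± 0.13 (adjusted p = 3.55e-15), and between 24 h and 48 h 0.20 (95% interval -0.07 to 0.46, adjusted p = 0.256). None of the 7 groups overlapped its neighbour in the order of means, 12 h Dox lowest, then day 10, NoDox at 12, 24 and 48 h, and Dox at 24 h and 48 h. Per kilobase LMO1 reached 71.9 ± 10.5 CPM per kb at 48 h Dox, next to LHX2 at 107 ± 11.1 CPM per kb.

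LMO2 (chromosome 11, 33858576 to 33892076, minus strand), which bridges factors in blood formation, changed in the same directions as LMO1 at a lower level. It had 3.04, 3.85 and 3.77 CPM in 12 h Dox libraries and 7.08, 7.13 and 8.49 CPM in NoDox libraries (log2 fold change -1.10 ± 0.17, adjusted p = 4.56e-06). At 24 h Dox libraries held 17.1, 15.7 and 17.5 CPM and NoDox libraries 9.59, 5.88 and 6.03 CPM (1.20 ± 0.14, adjusted p = 7.73e-08). At 48 h Dox libraries held 15.0, 13.8 and 12.9 CPM and NoDox libraries 9.08, 10.8 and 10.3 CPM (0.47 ± 0.15, adjusted p = 0.0243). The groups were apart at each time, but the 48 h call was lost without Dox replicate 1 (0.40), Dox replicate 2 (0.47), NoDox replicate 1 (0.40) or NoDox replicate 3 (0.48) and by library totals (0.39). The Dox effect rose by 2.30 ± 0.22 between 12 h and 24 h (adjusted p = 1.9e-09) and fell by 0.73 ± 0.20 between 24 h and 48 h (adjusted p = 0.00806).

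LMO3 (chromosome 12, 16548372 to 16610594, minus strand), a LIM-only factor of forebrain neurons, was higher with Dox at 48 h only. It had 2.33, 2.16 and 2.96 CPM in 12 h Dox libraries and 12.7, 9.78 and 11.03 CPM in NoDox libraries (-2.19 ± 0.16, adjusted p = 4.09e-12). At 24 h Dox libraries held 21.3, 17.2 and 17.5 CPM and NoDox libraries 20.7, 18.5 and 15.8 CPM, groups that overlapped (0.02 ± 0.12, 95% interval -0.23 to 0.28, adjusted p = 0.903). At 48 h Dox libraries held 34.9, 31.8 and 29.5 CPM and NoDox libraries 19.1, 16.1 and 18.0 CPM, again apart (0.85 ± 0.12, adjusted p = 7.57e-06). Both steps passed the test, with 2.21 ± 0.20 between 12 h and 24 h (adjusted p = 7.62e-10) and 0.83 ± 0.17 between 24 h and 48 h (adjusted p = 0.000492).

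LMO4 (chromosome 1, 87328880 to 87348923, plus strand), a LIM-only factor expressed widely in the cortex, fell at 12 h and 24 h and overlapped NoDox at 48 h. It had 16.6, 16.4 and 19.0 CPM in 12 h Dox libraries and 96.3, 106.5 and 94.1 CPM in NoDox libraries. At 24 h it had 40.6, 43.3 and 39.6 CPM in Dox libraries and 76.6, 83.8 and 86.7 CPM in NoDox libraries, and at 48 h 121, 124 and 118 CPM in Dox libraries and 121, 132.5 and 123 CPM in NoDox libraries. The groups were apart at 12 h and 24 h and overlapped at 48 h. The log2 fold changes were -2.52 ± 0.07 (adjusted p = 1.21e-21), -0.999 ± 0.068 (adjusted p = 9.02e-13) and -0.05 ± 0.07 (95% interval -0.19 to 0.09, adjusted p = 0.618). Its effect moved by 1.52 ± 0.10 between 12 h and 24 h (adjusted p = 5.28e-13) and by 0.94 ± 0.09 between 24 h and 48 h (adjusted p = 1.26e-08).

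Tested as differences between times, 6 of 9 members had a higher Dox effect at 24 h than at 12 h and 0 a lower one, where 16.1% and 14.8% of all genes were called (1914 higher and 5719 lower by library totals, 3157 and 2917 with TMM). At an unadjusted p below 0.05 the count lower was also 0 in edgeR. At an adjusted p below 0.05 it was 0 in DESeq2, and limma on the deposited normalized values called 1, LMX1B. The 6 were LHX2, LHX5, LMO1, LMO2, LMO3 and LMO4, and all 4 LIM-only genes were thus among them. Between 24 h and 48 h 3 members had a higher effect (LHX9, LMO3 and LMO4) and 2 a lower one (LHX2 and LMO2), where 12.7% and 13.1% of all genes were called (1886 and 3190 by library totals, 2491 and 2573 with TMM). The LHX2 step of -0.41 ± 0.13 (adjusted p = 0.0191) was not called without 24 h Dox replicate 1 (-0.34), 24 h NoDox replicate 3 (-0.36) or 48 h NoDox replicate 1 (-0.33). These differences share the 24 h libraries.

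Without doxycycline all 4 LIM-only genes and LHX1 were higher at 48 h than at day 10, LMO3 not by library totals. Against day 10, 2 of 9 members were higher and 0 lower in NoDox at 12 h, where 15.5% and 16.3% of all genes were called. At 24 h 4 were higher and 1 lower (8.84% and 8.47% of all genes), and at 48 h 5 were higher and 1 lower (21.4% and 20.2% of all genes, 3176 and 5174 genes by library totals, 4215 and 3973 with TMM). At an unadjusted p below 0.05, edgeR had 1 member lower at 12 h, LMO3. At an adjusted p below 0.05, limma and DESeq2 called 0 lower at 12 h, as edgeR did. All of these share the day 10 libraries, and without day 10 replicate 1 no call changed.

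LMO2 rose at each time, to 7.56 ± 0.797, 7.16 ± 2.10 and 10.0 ± 0.869 CPM in NoDox at 12, 24 and 48 h, against 4.05 ± 0.781 CPM at day 10 (log2 fold changes 0.88 ± 0.17, 0.82 ± 0.17 and 1.28 ± 0.17). LMO1 had 23.7 ± 0.733 CPM in NoDox at 12 h (adjusted p = 0.121) and rose to 32.1 ± 1.35 and 36.6 ± 3.58 CPM at 24 h and 48 h, against 20.7 ± 0.866 CPM at day 10 (0.64 ± 0.09 and 0.82 ± 0.10). LHX1 rose to 7.28 ± 1.29 and 8.17 ± 1.56 CPM at 24 h and 48 h, against 4.36 ± 0.437 CPM at day 10 (0.76 ± 0.18 and 0.92 ± 0.18). These 3 genes were thus apart from day 10 by 24 h.

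LMO4 went both ways, with 82.4 ± 5.23 CPM in NoDox at 24 h (-0.34 ± 0.07, adjusted p = 0.00042) and 125.5 ± 6.12 CPM at 48 h (0.27 ± 0.07, adjusted p = 0.00161), against 104.5 ± 4.05 CPM at day 10. LHX5 fell to 50.6 ± 2.44 CPM in NoDox at 48 h, against 66.0 ± 2.65 CPM at day 10 (-0.38 ± 0.07, adjusted p = 0.00013). LHX9 rose to 10.3 ± 1.83 CPM in NoDox at 12 h, against 6.75 ± 0.867 CPM at day 10 (0.62 ± 0.18, adjusted p = 0.0115), a call lost without NoDox replicate 1 (0.47), without day 10 replicate 3 (0.51) and in limma (0.61). LMO3 stood at 18.3 ± 2.47 CPM in NoDox at 24 h (0.41 ± 0.12, adjusted p = 0.0222) and 17.8 ± 1.5 CPM at 48 h (0.35 ± 0.13, adjusted p = 0.0256), against 14.01 ± 2.24 CPM at day 10. At 24 h these groups overlapped. The LMO3 call at 24 h was lost without day 10 replicate 2 (0.28), NoDox replicate 1 (0.30) or NoDox replicate 2 (0.40), and that at 48 h without day 10 replicate 2 (0.23), NoDox replicate 1 (0.30) or NoDox replicate 3 (0.34). LHX2 had differences from day 10 of -0.05, -0.04 and -0.12, with 95% intervals within -0.32 and 0.16, and none passed.

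**Figure D3:**
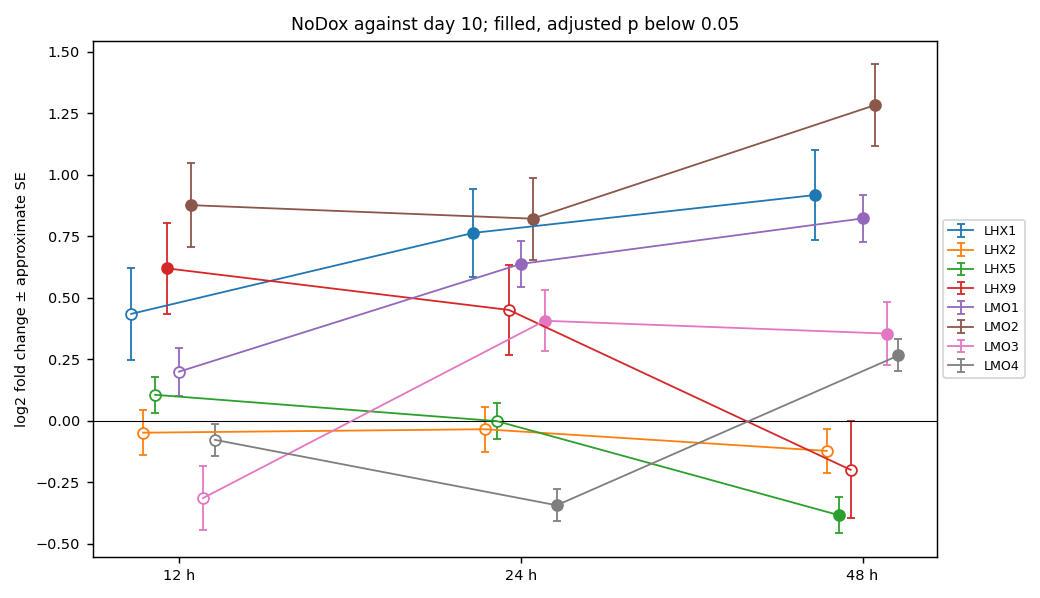
Log2 fold change of NoDox against day 10 (y axis) at 12, 24 and 48 h (x axis) for the 8 members tested other than LMX1B, with bars for the approximate standard error and filled points for an adjusted p below 0.05. At 48 h LMO2 is highest, at 1.28, then LHX1 at 0.92 and LMO1 at 0.82, and LHX5 is lowest, at -0.38.

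Transcripts that neighbour the LIM homeobox genes moved with them at some times. LHX5-AS1 (chromosome 12, 113471981 to 113480636, plus strand) starts head to head with LHX5, with 29 exon bases shared on opposite strands. It had 24.1 ± 2.02, 61.8 ± 1.69 and 47.0 ± 3.61 CPM in Dox libraries at 12, 24 and 48 h, and 82.9 ± 5.58, 101.7 ± 3.62 and 70.6 ± 3.88 CPM in NoDox libraries. The log2 fold changes were -1.79 ± 0.07 (adjusted p = 3.64e-18), -0.72 ± 0.07 (adjusted p = 9.05e-10) and -0.59 ± 0.07 (adjusted p = 6.31e-07), each with LHX5 lower at the same time. In NoDox at 24 h against day 10 LHX5-AS1 rose by 0.36 ± 0.07 (adjusted p = 0.000306), where LHX5 had a difference of -0.00 (95% interval -0.16 to 0.15). The kit marks strand, but whether counting used it is not given in the sources used here, so reads from the shared bases may sit in either gene, and overlapping antisense reads within LHX2 cannot be told apart.

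LHX1-DT (chromosome 17, 36861674 to 36936670, minus strand) runs away from LHX1 and shares no bases with it. It had 0.414 ± 0.144, 0.952 ± 0.111 and 2.34 ± 0.254 CPM in Dox libraries at 12, 24 and 48 h, and 1.92 ± 0.329, 2.71 ± 0.748 and 5.04 ± 0.293 CPM in NoDox libraries. It fell at all 3 times (-2.17 ± 0.28, -1.53 ± 0.23 and -1.11 ± 0.20, adjusted p = 3.57e-07, 4.55e-06 and 0.000232), and like LHX1 it was higher in NoDox at 48 h than at day 10 (1.47 ± 0.21, adjusted p = 1.77e-06). LHX2-AS1 (chromosome 9, 124006277 to 124009406, minus strand) lies within the span of LHX2 and shares no exon bases with it. It had 1.44 ± 0.132 CPM in 12 h Dox libraries and 3.95 ± 0.422 CPM in NoDox libraries (-1.46 ± 0.22, adjusted p = 4.15e-06). At 24 h, where LHX2 rose, its difference of 0.33 ± 0.21 did not pass (95% interval -0.12 to 0.78). LMX1B-DT had 0 or 1 read in each library, and LMX1A-AS1 and LMX1A-AS2 had 0.

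**Figure D4:**
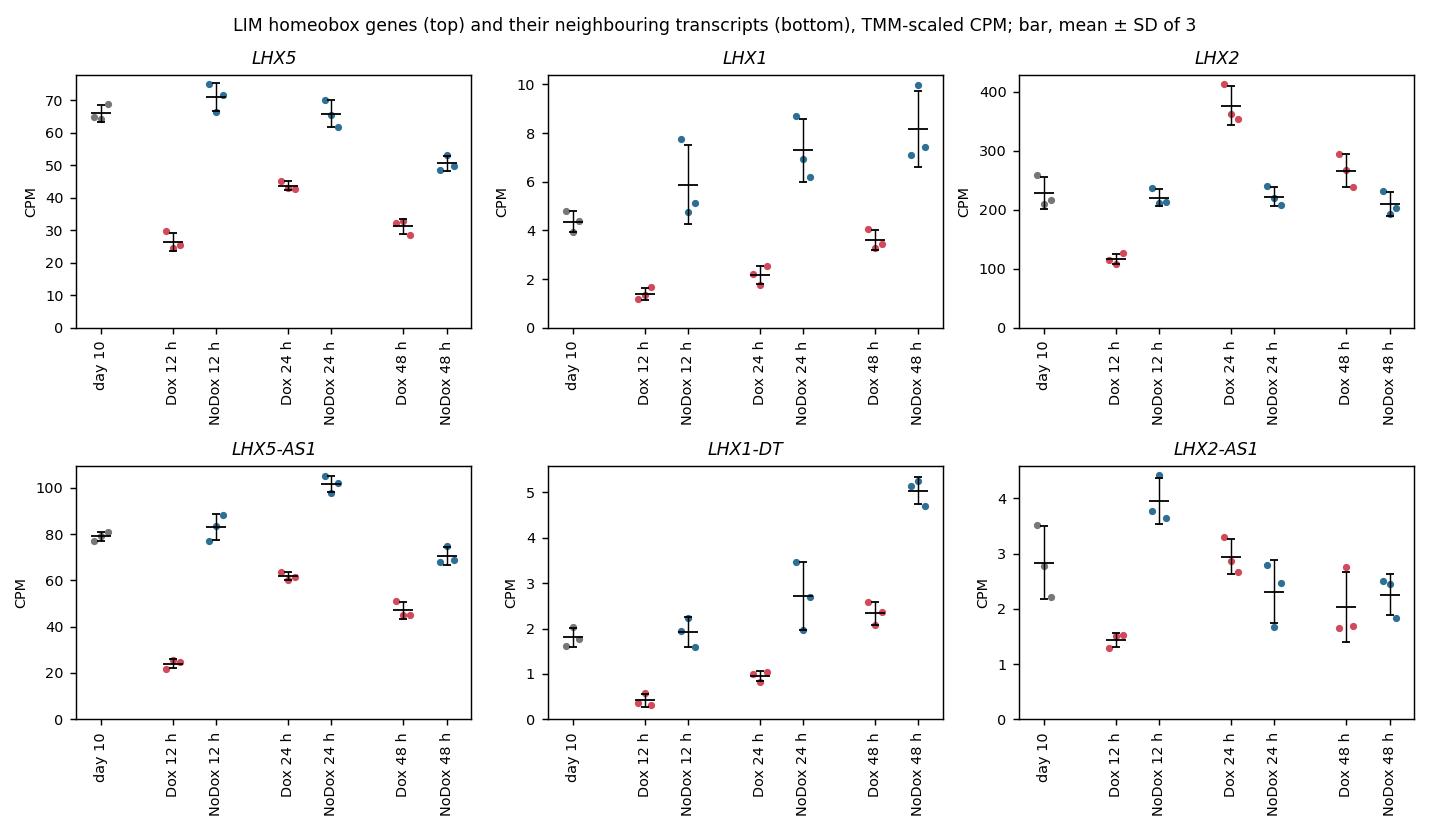
CPM (y axes, linear from 0) in every library of the 7 groups for LHX5, LHX1 and LHX2 (top) and LHX5-AS1, LHX1-DT and LHX2-AS1 (bottom), Dox in red, NoDox in blue, day 10 in grey, bars for the mean and SD of 3. LHX5-AS1 and LHX1-DT lie lower in Dox than in NoDox libraries at each time, as LHX5 and LHX1 do.

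The cofactors that LIM proteins bind had a median log2 fold change of -0.21 at 12 h, against -1.41 for the members, a description with no test. Of 7 cofactor genes, all tested, 0 rose and 5 fell at 12 h (19.8% and 19.9% of all genes). At 24 h 2 rose and 1 fell (17% and 16.9% of all genes), and at 48 h 1 rose and 0 fell (9.23% and 8.94%). CITED2, whose protein competes for shared coactivators and binds LHX2, had 34.02 ± 1.18 CPM in 12 h Dox libraries and 73.5 ± 3.19 CPM in NoDox libraries (-1.11 ± 0.07). It was above NoDox at 24 h, with 110.2 ± 4.92 CPM in Dox libraries and 77.8 ± 0.934 CPM in NoDox libraries (0.50 ± 0.06), and at 48 h (0.22 ± 0.07, adjusted p = 0.017). LDB1, the common cofactor, had 200.5 ± 5.62 CPM in 12 h Dox libraries and 232 ± 3.83 CPM in NoDox libraries (-0.21 ± 0.05, adjusted p = 0.00206), and its differences at 24 h (0.02, 95% interval -0.10 to 0.13) and 48 h (0.13, 0.01 to 0.24, adjusted p = 0.105) did not pass. SSBP3 fell by 0.46 at 12 h and rose by 0.18 at 24 h, SSBP4 and SSBP2 fell by 0.34 and 0.20 at 12 h, and LDB2, a relative of LDB1, fell by 0.40 at 24 h. RLIM, an E3 ligase that targets LDB proteins, passed at no time. At 12 h the count of 0 higher was also 0 at an unadjusted p below 0.05, and at 48 h so was the count of 0 lower.

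Of 10 listed protein partners of LIM-only factors, 8 were tested, and 3 rose and 4 fell at 12 h (19.8% and 19.9% of all genes). At 24 h 5 partners rose and 0 fell (17% and 16.9% of all genes), and at 48 h 1 rose and 1 fell (9.23% and 8.94%). At 24 h 1 of the partners was lower at an unadjusted p below 0.05. TAL2 and GATA3 passed the filter on low counts only through Dox libraries, so that their higher calls within these counts (TAL2 at 12 h and 24 h, GATA3 at 24 h) were a condition of being tested. TAL2, a basic helix-loop-helix partner of LMO2 in leukaemia, had 0.894, 0.654 and 0.561 CPM in 12 h Dox libraries and 0.357, 0.137 and 0.132 CPM in NoDox libraries. At 24 h it had 1.15, 0.957 and 0.950 CPM in Dox libraries and 0.117, 0.126 and 0 CPM in NoDox libraries, which is 28, 22 and 21 reads in Dox libraries and 4, 3 and 0 in NoDox libraries. LYL1, its relative, rose at 12 h (0.93 ± 0.24), and DEAF1, an LMO4-binding factor, rose at 12 h (0.34 ± 0.07) and 24 h (0.42 ± 0.07). The E-protein genes TCF3, TCF4 and TCF12 fell by 0.45, 0.45 and 0.29 at 12 h, and TCF4 and TCF12 rose by 0.25 and 0.40 at 24 h. TCF12 was the 1 partner higher at 48 h (0.20, adjusted p = 0.046). RBBP8, which binds LMO4, fell by 0.44 at 12 h and by 0.40 at 48 h. TAL1 and GATA2 did not pass the filter.

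Of 6 other LIM homeobox genes, ISL1, ISL2 and LHX8 were tested, and LHX3, LHX4 and LHX6 were not. ISL1, a striatal and motor neuron factor, had 0.322, 0.115 and 0.306 CPM in 12 h Dox libraries and 5.55, 4.43 and 4.00 CPM in NoDox libraries (-4.21 ± 0.29, adjusted p = 7.84e-13). It was lower at 24 h (-0.74 ± 0.19, adjusted p = 0.00229) and overlapped at 48 h (-0.03, 95% interval -0.53 to 0.47). ISL2 passed the filter only through Dox libraries, so its higher calls at 12 h and 48 h were a condition of being tested. It had 8, 22 and 12 reads in 12 h Dox libraries and 2, 3 and 3 in NoDox libraries, and at 48 h 25, 14 and 4 reads in Dox libraries and 1, 3 and 3 in NoDox libraries. LHX8 passed at no time.

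Markers of other regions and cell types are described beside the members, and their part in the members' changes was not tested. Of all genes tested, 19.8% were called higher and 19.9% lower at 12 h. The shares were 17% and 16.9% at 24 h, and 9.23% and 8.94% at 48 h. At 12 h, when LHX1, LHX2, LHX5 and LHX9 fell, 7 of 12 tested hem and roof plate genes fell and 0 rose (1 at an unadjusted p below 0.05), and their sum over the 14 listed was 100.5 to 111.7 CPM in Dox libraries and 245 to 262 CPM in NoDox libraries. RSPO3 (-4.93 ± 0.23) and RSPO2 (-2.13 ± 0.52) had the largest changes, and RSPO2 passed the filter only through libraries without doxycycline. In the Cajal-Retzius and early cortical neuron list 6 of 8 fell and 0 rose (also 0 unadjusted), with a sum of 38.1 to 46.3 CPM in Dox libraries and 130 to 149 CPM in NoDox libraries, led by TBR1 (-3.38 ± 0.26) and EBF2 (-2.04 ± 0.16). Of 7 eye field regulators 6 fell and 0 rose (also 0 unadjusted), with a sum of 249.5 to 279.6 CPM in Dox libraries and 794 to 852 CPM in NoDox libraries. Of 12 LGE and telencephalon markers 10 fell, ISL1 furthest, and 1, GSX2 itself, rose (5.07 ± 0.20), with a sum of 633 to 651 CPM in Dox libraries and 1693 to 1776 CPM in NoDox libraries. Without GSX2, which had a mean of 287.8 CPM in those Dox libraries, the other 11 summed to 343 to 374 CPM in Dox libraries and 1682 to 1769 CPM in NoDox libraries. The transgene, which carries GSX2, was counted as a feature of its own, with a mean of 876 CPM in those Dox libraries. Whether some of its reads were counted for GSX2 was not tested. Of 5 tested diencephalon markers 4 fell and 1 rose, led by BARHL2 (-3.99 ± 0.86) and OTP (-3.69 ± 0.25). SIM1, among those that fell, passed the filter only through libraries without doxycycline.

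At 24 h, when LHX2, LMO1 and LMO2 rose, 4 eye field regulators rose and 2 fell, with RAX at 1.32 ± 0.14, and the sum was 879 to 949.9 CPM in Dox libraries and 773.5 to 816 CPM in NoDox libraries. The hem list had 3 of 12 tested higher and 3 lower, where 17% of all genes were called higher and 16.9% lower. Its sums overlapped, with 165 to 175 CPM in Dox libraries and 153 to 175 CPM in NoDox libraries. WNT8B, with 19, 14 and 20 reads in Dox libraries and 1, 3 and 1 in NoDox libraries, passed the filter only through Dox libraries. Endothelial and blood genes, which include the cells LMO2 is best known from, had 3 of 5 tested higher and 0 lower (also 0 unadjusted), with a sum of 42.0 to 52.8 CPM in Dox libraries and 7.78 to 9.68 CPM in NoDox libraries. KDR alone had a mean of 37.9 CPM in Dox libraries and 2.08 CPM in NoDox libraries (4.21 ± 0.23), and RUNX1 rose as well (1.20 ± 0.24). SOX17 had no reads in 24 h Dox libraries, and PECAM1, GATA1, KLF1 and ERG each had a mean at or below 0.244 CPM there. All 4 tested neural crest genes rose at 24 h, led by SOX10 (1.90 ± 0.14) and TFAP2A (1.18 ± 0.26). In 4 other lists more genes fell than rose at 24 h: 8 of 12 LGE and telencephalon markers fell and 2 rose (sum 1322 to 1494 CPM in Dox libraries and 1866 to 1910 CPM in NoDox libraries), 2 of 8 Cajal-Retzius genes fell and 1 rose (100.3 to 120.1 CPM in Dox libraries and 139 to 155 CPM in NoDox libraries), and 3 of 3 tested midbrain genes fell (14.1 to 15.4 CPM in Dox libraries and 45.8 to 51.7 CPM in NoDox libraries). Of 5 tested diencephalon genes 3 fell and 1 rose, with a sum of 59.5 to 66.4 CPM in Dox libraries and 62.0 to 62.9 CPM in NoDox libraries, which overlapped. SHH in the midbrain list and SIM1 in the diencephalon list passed the filter only through libraries without doxycycline.

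At 48 h, when LMO3 rose and LMO4 did not pass, 4 of 12 LGE and telencephalon markers rose and 2 fell, with GSX2 at -2.49 ± 0.31 and DLX2 at 1.47 ± 0.27, and the sum was 2064 to 2204 CPM in Dox libraries and 1743 to 1825 CPM in NoDox libraries. In the Cajal-Retzius list 1 gene, RELN, rose (1.46 ± 0.16) and 0 fell, with sums that overlapped, 131 to 144 CPM in Dox libraries and 128 to 138 CPM in NoDox libraries, and 1 gene was lower at an unadjusted p below 0.05. In the hem list 3 rose and 3 fell, in the eye field list 3 rose and 0 fell, and in the neural crest list 2 rose and 0 fell, with 0 lower at an unadjusted p below 0.05 in both of these last lists. The 3 pluripotency genes tested, LIN28A, ZFP42 and DPPA4, fell at 12 h (sum of the 5 listed 135 to 140.5 CPM in Dox libraries and 225.5 to 239.5 CPM in NoDox libraries), and mesendoderm genes summed to 3.72 CPM or less in every library.

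Over the 7 group means, on the log2 scale and as a description with no test, some members had like courses. LHX1 and LHX9 correlated at r = 0.92, LHX5 and LHX9 at 0.85, and LMO1 and LMO2 at 0.93, while LHX2 correlated with LMO3, LMO1 and LMO2 at 0.83, 0.82 and 0.80. LMO4 correlated with LHX1, LMO3 and LHX9 at 0.854, 0.799 and 0.777, and LMO1 with LMO3 at 0.815. LHX9 and LMO1 correlated at -0.21. The 7 points share their libraries, and the 12 h Dox group had the lowest mean for all 8 members compared by this measure. Of the 4086 genes compared, which averaged 2 CPM or more and spanned 1 log2 unit or more, the nearest to LMO4 were CNN3 (0.998), SLAIN1 (0.994) and TBC1D9 (0.992). Those nearest to LMO1 were MSI2 (0.992), FGD4 (0.974) and IRF2BP2 (0.971), and to LHX2 TMPRSS5 (0.992), FLRT3 (0.988) and EFNB1 (0.983). LHX5 was nearest to NEUROD1 (0.987), NEUROG1 (0.980) and MECOM (0.972), LHX9 to PHYHIPL (0.983), ALCAM (0.980) and CABP7 (0.977), and LHX1 to CPLX2 (0.991), COL11A1 (0.986) and MAB21L1 (0.985). LMO2 was nearest to SLC2A1 (0.990), LIPG (0.975) and KDM2B-DT (0.969), and LMO3 to TTYH1 (0.985), STARD4 (0.983) and AMER2 (0.979).

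Whether the letters in the promoter windows had a part in the members' directions was not tested. LMO1 and LMO3, whose printed windows hold TAATTA and dense TAAT, were lower with Dox at 12 h and higher at 48 h. The other LMO3 windows hold no TAATTA. LHX2, whose window holds no TAAT, was also lower at 12 h and higher at 48 h. Its 48 h call was lost without Dox replicate 1 or NoDox replicate 2. LHX9 and LMO4, with no TAATTA in their windows, were lower at 12 h as well. LMX1B, whose window holds no TAAT, was higher at 12 h, a call that was a condition of its being tested.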

How the data were processed

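RNA was measured in 21 libraries of 7 groups of 3, grouped by the labels. The authors deposited unnormalized counts for each gene (hg38), and the submitters' processing notes list STAR 2.7.9 and Subread 2.0.3 among the tools. Neither the strand setting nor the annotation's name is given in those notes or the headers. A second deposited table holds the same counts after normalization, treated here as signal, and DESeq2 is listed without a version. Gene coordinates and the lengths used for CPM per kb come from the count table.

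Features were filtered with filterByExpr (19655 left), scaled by TMM and tested with edgeR 4.0.16 in R 4.3.3 (robust quasi-likelihood F test, 1 fit of 7 groups, 14 residual degrees of freedom, biological coefficient of variation 7.24%), with Benjamini-Hochberg adjustment over all features at 0.05 in 9 comparisons. The procedure was tested on simulated data. Standard errors of log2 fold changes were approximated as |log2 fold change| divided by the root of F, rough at few reads, and 95% intervals use them with 14 degrees of freedom. A gene with 0 reads has a floor of 3 counts, for counting error only.

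The members and lists were chosen with earlier results of these data known. Named genes are the members, their neighbouring antisense or divergent transcripts, the pathway lists, up to 2 genes of a marker list with the largest called change, genes of the lists that check the labels, and for each member of at least 2 CPM the 3 genes with the highest r. Some genes this rule names are not reported here. Marker lists and motifs are descriptions. Replicate number was left out of the main fit, as no comparison had all 3 correlations of same-numbered residuals over 0.1. This cutoff does not exclude a weak pairing. For Dox against NoDox at 48 h the correlations were 0.204, 0.152 and 0.074 over genes of at least 2 CPM. Alternatives were DESeq2 1.42.0 (size factors, and its Wald test), library totals, no filter, only the groups compared, a replicate block, limma 3.58.1 on log2 of the deposited normalized count + 1, and each library left out.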

Additional observations from a re-analysis of the deposited data

Results flagged for a closer look

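The Dox effect on a member differed between 2 collection times, by a test of the difference itself, in 11 cases. Between 12 h and 24 h the log2 fold change of Dox against NoDox rose by 2.555 for LMO1, 2.299 for LMO2, 2.213 for LMO3, 1.676 for LHX2, 1.52 for LMO4 and 0.822 for LHX5. Of these, LMO1, LMO2 and LHX2 were lower with Dox at 12 h and higher at 24 h. Between 24 h and 48 h the effect rose by 2.092 for LHX9, 0.945 for LMO4 and 0.83 for LMO3, and changed by -0.733 for LMO2 and by -0.41 for LHX2. The adjusted p-values from edgeR lay between 3.55e-15 (LMO1, 12 h to 24 h) and 0.0191 (LHX2, 24 h to 48 h).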

How the results depend on the processing

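No result changed direction past the threshold under any alternative, and no call on a member's Dox effect at 12 h or 24 h changed. With each library left out, the members called higher at 48 h with Dox numbered 2 to 4, against 4 with all libraries. Of those called higher in NoDox at 12 h against day 10, LHX9 was lost without day 10 replicate 3 or NoDox replicate 1. LHX1 was gained there without NoDox replicate 2. With each library left out, those called lower in this comparison numbered 0 to 1, against 0. Members with a lower Dox effect at 48 h than at 24 h numbered 1 to 2, against 2. limma on the deposited normalized values called 1 member higher in NoDox at 12 h, against 2 in edgeR, and 1 lower for the step from 12 h to 24 h, LMX1B at -2.36, against 0. Replicate number was not in the main fit. A replicate block called 1 member lower in NoDox at 12 h, LMO3 at -0.32, against 0 without the block, and changed no other call. Library totals moved the median of all genes by 0.18 at 12 h and ended the calls on LMO2 at 48 h of Dox (0.39) and on LMO3 in NoDox at 48 h (0.27). They gave 7340 higher and 2213 lower genes at 12 h with Dox, against 3898 and 3912, and 1017 and 2835 at 48 h, against 1814 and 1757. For Dox at 12 h against day 10 they gave 7707 and 2850, against 4807 and 4717, and for the step from 12 h to 24 h 1914 and 5719, against 3157 and 2917. LHX9 in NoDox at 24 h against day 10 was called with no filter (0.46) and with only the groups compared (0.46), and LHX1 in NoDox at 12 h without NoDox replicate 2 (0.56). With only the groups compared LMO3 in NoDox at 24 h was not called (0.41). The cause of these changes was not tested. Depth limits LMX1B and LMX1A, which lie near the floor of 3 counts.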
